A study of Mus musculus with 8 samples.

Results

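Superficial dermal fibroblasts at embryonic day 13 (E13) are the mesenchymal cells of the upper dermis that lie under the surface epithelium of mouse back skin. They were chosen by the RNA of marker genes within 4 single-cell libraries made with a 10x 3' kit. A cell entered the eligible mesenchymal set when it had at least 1000 detected genes, at most 10% mitochondrial UMIs (unique molecular identifiers, 1 per captured RNA molecule), fewer than 3 of the 6 epithelial genes Epcam, Cdh1, Cldn7, Esrp1, Grhl2 and Rab25, and no UMI of Cdh5, Ptprc, Sox10, Myog or Rgs5. Score A was the number detected of Crabp1, Nrgn, Calb1, Lix1 and Sp5. Score B was the number detected of Osr1, Agtr2, Ogn, Osr2 and Figf. Cells with A minus B of 2 or more were the superficial fibroblasts, and cells with B minus A of 2 or more are called deep cells and serve as the comparison. The rule took 739 of 2233 eligible cells, out of 3991 E13 barcodes and 8339 barcodes in the series. A further 957 eligible cells fell between both sets, and 537 were deep cells.

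The skin was dissected from the back and dissociated with collagenase and trypsin. The E13 libraries were 1 from wild-type mice (WT), 1 from mice heterozygous for a GFP knock-in at the ΔN form of p63 (ΔNp63-GFP KI-Het, HET) and 2 from mice carrying the same allele as a knockout (ΔNp63-GFP KI-KO, KO 1 and KO 2). The series compares Ctrl with P63KO, so WT and HET were joined as control (n = 2 libraries) against KO (n = 2), which leaves the HET genotype inside the control arm. The allele is a whole-animal knock-in, and how many embryos went into a library is not stated in the labels. Values below are listed in the order WT, HET, KO 1 and KO 2 unless said otherwise. The superficial fibroblasts numbered 224, 312, 143 and 60 cells, with medians of 16538.5, 14412, 16072 and 16413 UMIs per cell, and their summed UMIs were 4117219, 4795203, 2513184 and 990261. Levels are CPM, the UMIs of a gene per 1000000 summed UMIs of a cell set in 1 library. Nothing in the labels ties the libraries to separate litters, so the p-values reflect no more than how these libraries vary.

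The targeted gene, Trp63, encodes p63, a transcription factor of stratified epithelia. Over all cells that passed the quality filter it stood at 46.7 and 23.2 CPM in WT and HET and at 0.854 and 1.53 CPM in KO 1 and KO 2. Among superficial fibroblasts it stood at 8.99 and 5.63 CPM in control (64 UMIs in total) and had no UMI in either KO library. Against the floor of 3 UMIs over the KO arm, it was at least 8.39-fold higher in control. These counts come from the 3' end of transcripts and do not show which part of the gene the knock-in replaced.

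Some libraries stood apart before any comparison. In KO 2 only 37.7% of the quality cells were eligible, against 60.7 to 63.9% in the others. Epithelial genes left out 20.8% of its cells, against 9.12 to 14.9%. A further 191 of 904, 335 of 1194, 324 of 1085 and 295 of 711 quality cells held Cdh5, Ptprc, Sox10, Myog or Rgs5. Red-cell RNA was uneven: 12, 13, 1 and 0 cells of the superficial set had over 5% of their UMIs from haemoglobin genes. Haemoglobin took at least 32.6% of the UMIs of these cells in WT, 72.2% in HET and 77.7% in KO 1. Their median numbers of detected genes were 1561, 1318 and 1037. They passed the rule and are counted as superficial fibroblasts in all values that do not leave out cells of other lineages. The erythroid list of 8 genes summed to 4.79e+04, 3.811e+04, 6495 and 2938 CPM in the superficial fibroblasts. Without 22, 26, 3 and 1 cells that carried red-cell RNA or over 0.2% of their UMIs from another lineage's markers, the erythroid sum was 4173, 5321, 3503 and 2937 CPM. Every test of KO against control below was therefore also run without these 52 cells and the deep cells that met the same limit, an alternative added after the data were seen. Pairs of the 8 libraries shared 0 to 6 cell barcodes.

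In the embryo, back dermis forms as Wnt ligands act through beta-catenin on the mesenchyme beneath the ectoderm. This layer switches on Twist2 and feedback genes of the pathway, and it later gives rise to the papillary dermis and the dermal condensates of hair follicles. The mesenchyme beneath it becomes reticular dermis and fascia and is rich in matrix genes. p63 belongs to the overlying epithelium and is not a gene of dermal fibroblasts.

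The label was checked against its markers. Crabp1, a retinoic acid binding protein gene (ENSMUSG00000032291, chr9:54764748-54773110, plus strand), Nrgn, which encodes the calmodulin-binding protein neurogranin (ENSMUSG00000053310, chr9:37544492-37552904, minus strand), Calb1, which encodes the calcium buffer calbindin (ENSMUSG00000028222, chr4:15881264-15908064, plus strand), Lix1 (ENSMUSG00000047786, chr17:17402672-17459387, plus strand) and Sp5, a Wnt-responsive transcription factor gene (ENSMUSG00000075304, chr2:70474923-70477729, plus strand), chose the cells. Twist2, a basic helix-loop-helix factor of early dermis (ENSMUSG00000007805, chr1:91801461-91848028, plus strand), is the marker that the rule did not use. Coordinates are GENCODE M21 gene spans on GRCm38. Twist2 stood at 985, 1059, 1009 and 1091 CPM in superficial fibroblasts and at 639, 509, 445 and 432 CPM in deep cells. The sets did not overlap in any of the 4 libraries, and superficial fibroblasts were higher by 1.04 ± 0.30 (SD, n = 4) on the log2(CPM + 5) scale used for every difference between the sets. This difference has no test, since both sets were cut from the same counts. A wider superficial dermal list lay on both sides. Of its 11 genes considered outside the rule, Twist2 among them, 6 were higher in superficial fibroblasts and 5 lower. Their median difference was 0.12, ranging from -2.55 to 2.33. In every library 2 of them were 2-fold higher and 2 were 2-fold lower, so the list as a whole did not mark the superficial set. Genes of general fibroblasts, such as Col1a1, Pdgfra and Prrx1, summed to 5114 to 5573 CPM over 9 genes in superficial fibroblasts and to 7569 to 9554 CPM in deep cells.

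Promoter stretches of 5 genes are shown because the results below turn on 2 groups, Wnt feedback genes and interferon-response genes. Each is the 250 bases before a RefSeq start site in GRCm38.p6, 5′ to 3′ on the gene's strand. Capitals in the first 3 mark CTTTGA or its reverse complement TCAAAG, the core recognised by TCF and LEF factors, searched on both strands.
Sp5: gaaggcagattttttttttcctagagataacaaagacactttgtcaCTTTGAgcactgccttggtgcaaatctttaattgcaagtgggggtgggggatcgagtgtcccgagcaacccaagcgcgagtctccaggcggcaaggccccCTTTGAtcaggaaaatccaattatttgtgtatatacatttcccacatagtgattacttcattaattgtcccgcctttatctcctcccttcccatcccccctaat
Lef1: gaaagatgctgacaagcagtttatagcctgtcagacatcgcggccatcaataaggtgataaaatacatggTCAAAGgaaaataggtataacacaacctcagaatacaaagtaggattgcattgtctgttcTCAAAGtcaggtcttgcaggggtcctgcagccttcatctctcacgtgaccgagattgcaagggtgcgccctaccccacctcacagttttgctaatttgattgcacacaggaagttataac
Dkk1: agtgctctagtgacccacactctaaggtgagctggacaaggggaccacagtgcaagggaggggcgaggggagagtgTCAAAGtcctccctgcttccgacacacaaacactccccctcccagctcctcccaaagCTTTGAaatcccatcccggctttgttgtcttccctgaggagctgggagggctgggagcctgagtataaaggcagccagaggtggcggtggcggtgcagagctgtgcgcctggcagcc
Sp5 lies on the plus strand (chr2:70474673-70474922), with matches beginning 204 and 104 bases before the start. The Lef1 stretch (chr3:131156044-131156293, plus strand) belongs to 1 of several RefSeq starts, one inside the gene, and its matches begin 180 and 120 bases before that start. Dkk1 is on the minus strand (chr19:30549497-30549746), with matches 174 and 117 bases before the start. Of 6 Wnt genes looked up (Sp5, Nkd1, Dkk1, Wif1, Notum and Lef1), 5 had an entry and 3 of these held the motif, while 13.8% of all 32851 promoter entries held it in the same window. Capitals in the next pair mark GAAA followed, after any 2 bases, by another GAAA, the core of an interferon-stimulated response element, searched on both strands, where overlapping matches run together.
Isg15: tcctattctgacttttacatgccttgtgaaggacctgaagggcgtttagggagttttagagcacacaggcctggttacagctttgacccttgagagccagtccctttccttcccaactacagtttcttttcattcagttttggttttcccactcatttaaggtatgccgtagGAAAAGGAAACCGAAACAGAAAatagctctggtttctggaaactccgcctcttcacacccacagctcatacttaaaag
Bst2: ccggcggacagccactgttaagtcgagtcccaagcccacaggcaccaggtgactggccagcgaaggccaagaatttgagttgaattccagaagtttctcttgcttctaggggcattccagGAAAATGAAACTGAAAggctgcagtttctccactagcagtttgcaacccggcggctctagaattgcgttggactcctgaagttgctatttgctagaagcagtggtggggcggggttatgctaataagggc
The Isg15 stretch (chr4:156200819-156201068, minus strand) held 3 overlapping matches that begin 78, 72 and 66 bases before the start. The Bst2 stretch (chr8:71537473-71537722, minus strand) held 2, at 130 and 124 bases. Of 6 interferon genes looked up, 4 had an entry and 2 held the motif, against 2.98% of all entries. A match describes letters in a window and is not a measured binding site. A gene was counted when any of its entries held the motif, whereas the background shares are of single entries, so they are not like for like. The genes looked up were also chosen from these libraries.

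The marker genes varied among the superficial fibroblasts and between genotypes. Crabp1 was detected in 100% of the cells in every library, Lix1 in 95.8 to 98.6%, Nrgn in 89.4 to 95% and Sp5 in 79.2 to 95%. Calb1 was the least often detected of the 5, in 64.3, 71.5, 41.3 and 30% of the cells, so it was lower in both KO libraries than in both control libraries. Its level followed the same order, at 207, 241, 63.7 and 64.6 CPM. Crabp1 stood at 2816, 3724, 2137 and 1973 CPM, and its arms did not overlap either. Nrgn stood at 394, 231, 330 and 434 CPM, Lix1 at 354, 356, 288 and 268 CPM, and Sp5 at 140, 158, 141 and 165 CPM. The arms overlapped for Nrgn and Sp5 and did not for Lix1. These 5 genes have no test, because they chose the cells. Osr1, a transcription factor gene of deeper mesenchyme counted in score B, was still detected in 56.7 to 75.3% of the superficial fibroblasts, so the rule did not separate cells by this gene alone.

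Free RNA bounds how far detection can be read, so cells were thinned to 8000 UMIs each and compared with cells that carried endothelial or epithelial genes. The shares here pool the control and KO cells of the E13 libraries. Crabp1 was found in 98.9% of superficial fibroblasts, 87.4% of deep cells, 72.2% of cells with an endothelial gene and 69.7% of epithelial cells, so a UMI of Crabp1 alone did not mark a cell. Calb1 was found in 49.1, 0.571, 0 and 1.59% of these sets, where 0 of 79 endothelial-gene cells allows a share of up to 3.8%. Nrgn was found in 78.9, 13.1, 11.4 and 6.77%, and Sp5 in 65.6, 4.57, 6.33 and 4.38%. The low values of Nrgn, Calb1 and Sp5 in deep cells were fixed by the rule. Twist2, outside the rule, was found in 95.4% of superficial fibroblasts, 93.1% of deep cells, and 45.6 and 45.8% of the endothelial-gene and epithelial cells.

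Superficial fibroblasts made up a smaller share of the eligible mesenchyme in the KO libraries. They were 38.8% of 578 cells in WT, 43.0% of 725 in HET, 21.6% of 662 in KO 1 and 22.4% of 268 in KO 2. The means were 40.9% ± 3.03 (SD, n = 2) in control and 22.0% ± 0.556 (SD, n = 2) in KO, a difference of -18.9 percentage points, or 0.538 times the control share. The groups did not overlap, and the two-sided exact permutation p was 0.333, the smallest that 2 against 2 libraries allow. Deep cells went the other way, at 19.6 and 15.7% in control and 33.8 and 32.1% in KO. Cells between both sets took 41.7, 41.2, 44.6 and 45.5%. Calb1 is 1 of the 5 genes of score A, and with Calb1 left out of the score the difference in the share was -12.2 points. Without cells of other lineages the shares were 40.5, 45.5, 22.2 and 23.0%. With the same rule, the E15 libraries gave 19.1 and 24.8% in control and 11.3 and 9.08% in KO. KO was below control under every alternative of gate, depth and denominator that was run. The share is counted from the genes of score A, and Crabp1, Calb1 and Lix1 were lower in both KO libraries. A smaller share therefore cannot be told apart from lower levels of these genes in cells of the same kind. Nor can a share of captured cells be told apart from a difference in how well each kind of cell survived dissociation.

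**Figure D1:**
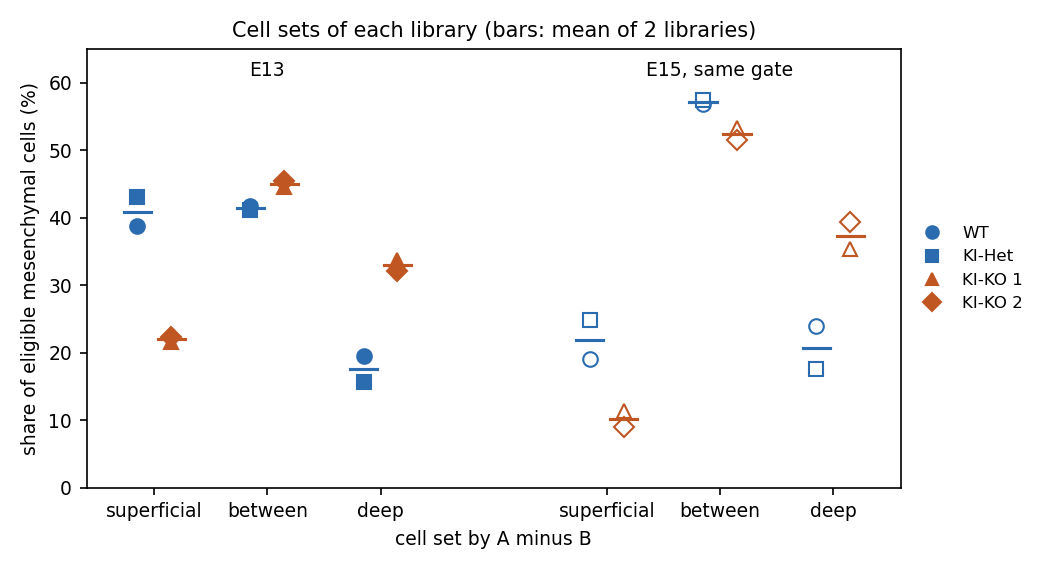
Share of eligible mesenchymal cells (percent, y axis) that were superficial fibroblasts, in between, or deep in each E13 library (x axis). Superficial fibroblasts took 38.8 and 43.0% in the control libraries and 21.6 and 22.4% in the KO libraries, and deep cells 15.7 to 19.6% and 32.1 to 33.8%.

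The score itself was a range and not a split. Pooled over libraries, 262, 275, 281, 306, 370, 345, 272 and 122 cells had A minus B of -3 or lower, -2, -1, 0, 1, 2, 3, and 4 or higher, so the rule cut through the most populated part of the range. Within the superficial fibroblasts, a score of 2 was held by 48.7% in WT, 39.7% in HET, 61.5% in KO 1 and 40.0% in KO 2. The arms overlapped on this measure. Just inside and just outside the threshold, Twist2 stood at 901, 966, 980 and 1088 CPM at a score of 2 and at 677, 594, 712 and 820 CPM at a score of 1. Nkd1, an intracellular Wnt inhibitor, stood at 277, 291, 271 and 275 CPM at a score of 2 and at 168, 160, 196 and 243 CPM at a score of 1. Lef1, a nuclear partner of beta-catenin, differed little there, at 102, 105, 56.3 and 73.9 CPM against 96.2, 100.2, 59.8 and 56.4 CPM.

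Across the score, mean levels over the 4 libraries changed by degrees. Here -3 stands for -3 or lower and 4 for 4 or higher. Lef1 went from 9.8 CPM at -3 through 46.9 CPM at 0 to 99.5 CPM at 3 and 94.3 CPM at 4. Twist2 stayed between 501.5 and 621.6 CPM from -3 to 0 and reached 983.5 CPM at 2 and 1105 CPM at 3. Dermatopontin (Dpt), a matrix protein of deeper connective tissue, went from 116.5 CPM at -3 to 2.0 CPM at 4. Dcn, which encodes the proteoglycan decorin, was lowest in the middle, at 1279 CPM at -3, 390.7 CPM at 1 and 533.5 CPM at 4. The score-4 values rest on few cells in some libraries, with 11 in the smallest.

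**Figure D2:**
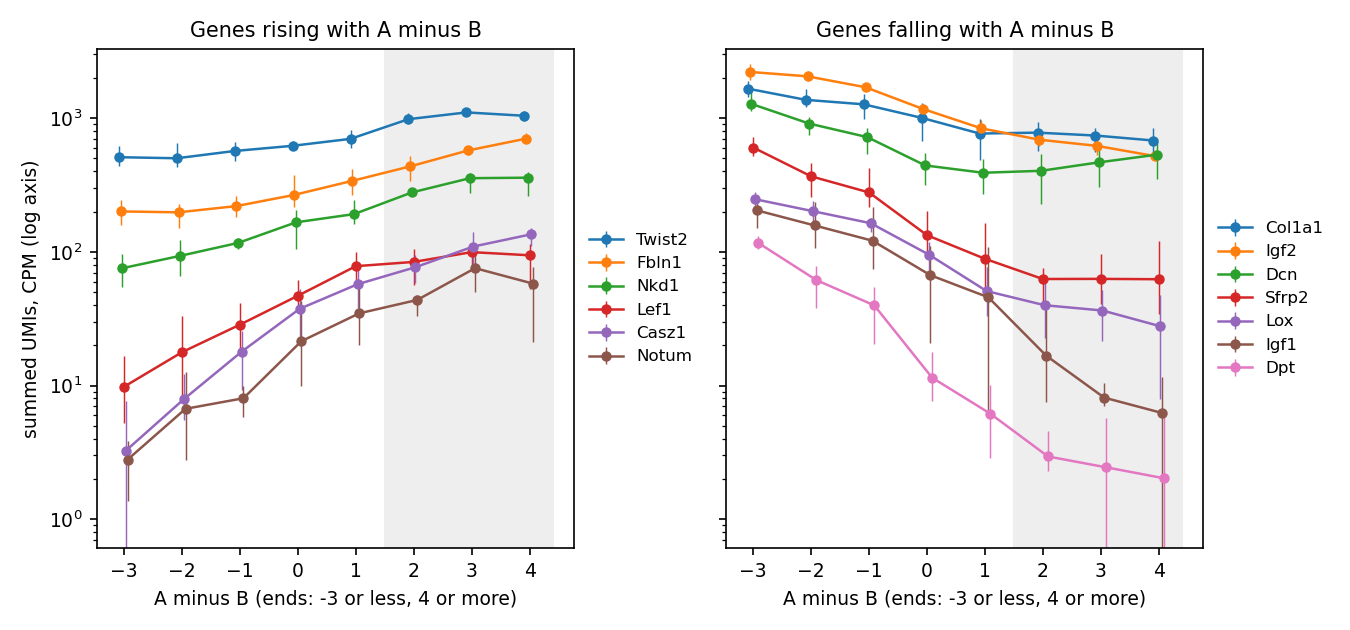
Mean level of genes outside the rule (CPM, log axis) by A minus B (x axis) over the 4 E13 libraries, where the end points pool -3 or lower and 4 or higher and bars run from the lowest to the highest library. Lef1 goes from 9.8 CPM at -3 to 94.3 CPM at 4 and Dpt from 116.5 to 2.0 CPM over the same range.

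Against deep cells, 49 of 5567 genes outside the rule were at least 2-fold higher in superficial fibroblasts in each of 4 libraries (0.88%) and 106 were at least 2-fold lower (1.9%), among genes with 20 CPM or more in the higher set of every library. This contrast is the one the rule cut, so these counts describe the cells and carry no test. The genes furthest above deep cells were Casz1, Ass1, Notum, Nrcam and Serpinc1. Casz1, a zinc finger transcription factor gene, stood at 103, 122, 69.2 and 95.9 CPM in superficial fibroblasts and at 6.15, 10.5, 3.67 and 2.75 CPM in deep cells, a log2 difference of 3.28 ± 0.30 (SD, n = 4). Ass1, argininosuccinate synthase of arginine metabolism, stood at 95.5, 114, 72.8 and 83.8 CPM and at 4.73, 12.9, 6.81 and 4.81 CPM, a difference of 3.0 ± 0.32. Both genes were above deep cells in every library with no overlap. The cell adhesion gene Nrcam (2.42), the antithrombin gene Serpinc1 (2.40), the synaptic adhesion gene Nrxn2 (2.37), the calcium buffer gene Calb2 (2.30), Nebl (2.12), the neurotrophin receptor gene Ngfr (2.07), Mllt3 (2.07) and Cpne8 (2.02) followed on the same log2 scale.

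Wnt inhibitors lay on both sides. Of 8 Wnt inhibitor genes that reached 20 CPM, 4 were 2-fold higher in superficial fibroblasts and 3 were 2-fold higher in deep cells, with a list median of 1.39 against 0.02 over all 5567 genes. Notum, which encodes a secreted enzyme that removes the lipid from Wnt, stood at 57.6, 62.1, 37.4 and 75.7 CPM in superficial fibroblasts and at 9.46, 4.79, 4.19 and 2.06 CPM in deep cells (log2 difference 2.65 ± 0.65). Wif1, which binds Wnt ligands outside the cell, stood at 110, 101, 70.0 and 46.5 CPM and at 36.9, 17.7, 7.07 and 4.12 CPM (2.20 ± 0.53). Dkk1, an antagonist of Wnt co-receptors, stood at 33.5, 56.9, 58.9 and 48.5 CPM and at 9.46, 4.79, 8.38 and 4.81 CPM (2.19 ± 0.55). These 3 secreted inhibitors and Nkd1 (1.88 ± 0.31) were the 4 past 2-fold on the superficial side, where 5 of the 8 genes had a positive mean difference. Sfrp1 (-2.89), Sfrp2 (-2.88) and Dkk2 (-2.31), also secreted inhibitors, were on the deep side. Sfrp2 stood at 61.4, 40.0, 85.5 and 57.6 CPM in superficial fibroblasts and at 477, 356, 605 and 458 CPM in deep cells.

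Of 11 Wnt response genes, 5 were 2-fold higher in superficial fibroblasts (Lef1, Nkd1, Dkk1, Notum and Wif1) and 1, the TCF gene Tcf7l2 (-1.62), was 2-fold higher in deep cells, with a list median of 0.90. Lef1 stood at 108, 110, 70.8 and 70.7 CPM in superficial fibroblasts and at 24.1, 17.7, 8.12 and 8.25 CPM in deep cells (2.33 ± 0.27). Axin2, the feedback scaffold of the pathway, differed by 0.90 on the same scale and did not reach 2-fold in every library. Among 5 ligands, Wnt2 was 2-fold lower in superficial fibroblasts (-2.16), and Wnt6 stood at 74.8, 66.3, 40.6 and 60.6 CPM in superficial fibroblasts and at 49.6, 25.9, 33.3 and 41.9 CPM in deep cells. Among 7 receptors and agonists, the receptor gene Fzd1 (-1.24) was the one 2-fold apart.

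**Figure D3:**
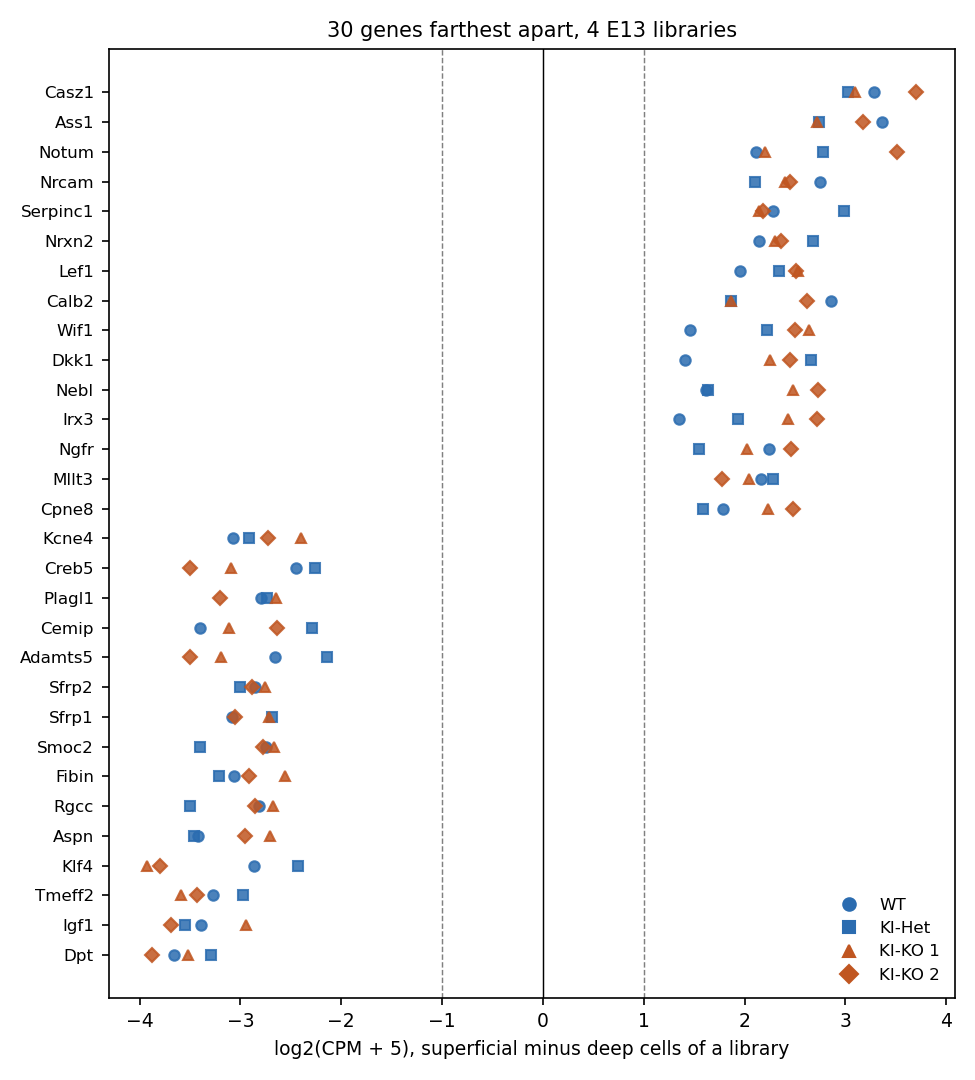
Difference in level between superficial fibroblasts and deep cells (superficial minus deep, log2 scale) for genes outside the rule, with 1 point per E13 library. Casz1, Notum and Lef1 have positive differences in 4 of 4 libraries, and Dpt and Igf1 have negative differences in 4 of 4.

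Transcription factors of position and of the mesenchyme leaned to the superficial side, with 14 of 20 above 0 and a median of 0.63. The 3 past 2-fold in every library were Irx3 (2.11 ± 0.60) and Irx5 (1.61 ± 0.47), Iroquois homeobox genes, and Zeb2 (2.02 ± 0.28), a zinc finger repressor gene. Zeb2 stood at 177, 223, 130 and 138 CPM in superficial fibroblasts and at 48.2, 59.4, 26.5 and 22.7 CPM in deep cells. None of the 6 Hox genes considered was 2-fold apart in all libraries (median 0.17). Runx3, a Runt-domain factor gene outside these lists, differed by 2.44 but did not reach 20 CPM in every library. Etv4, an ETS factor that responds to FGF, was the 1 gene of 5 in the FGF and ERK list past 2-fold (1.97 ± 0.38).

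Cell-cycle genes were all on the superficial side. All 20 S phase genes considered (median 0.60, range 0.38 to 0.88) and all 22 genes of G2 and M phase (median 0.79, range 0.64 to 1.14) had a positive mean difference, and none reached 2-fold in every library. Over all 5567 genes 2953 were above 0. Top2a, the topoisomerase of dividing cells, stood at 302, 304, 258 and 178 CPM in superficial fibroblasts and at 141, 183, 125 and 144 CPM in deep cells. Median depth did not separate the sets in one direction, at 16538.5, 14412, 16072 and 16413 UMIs in superficial fibroblasts and 15382, 15491, 15642 and 16383.5 UMIs in deep cells.

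Matrix genes leaned to the deep side. Of 30 genes of fibrillar and interstitial matrix, 22 were below 0, 7 were 2-fold lower in superficial fibroblasts and 1 was 2-fold higher, with a median of -0.88. Dpt was the lowest, at 2.19, 4.59, 1.99 and 2.02 CPM in superficial fibroblasts and 86.1, 88.6, 74.9 and 98.3 CPM in deep cells (-3.59 ± 0.25). Postn (-2.75), Lox (-2.52), Thbs2 (-2.40), Col12a1 (-1.98), Fbln5 (-1.68) and Tnc (-1.42) followed, and they encode periostin, the collagen cross-linking enzyme lysyl oxidase, thrombospondin 2, a fibril-associated collagen, fibulin 5 and tenascin C. Fbln1, the gene of fibulin 1, was the 1 matrix gene 2-fold higher in superficial fibroblasts, at 578, 577, 458 and 479 CPM against 222, 233, 172 and 169 CPM (1.38 ± 0.08). All 10 basement membrane genes were below 0 (median -0.59), with Smoc2 (-2.90) and Nid2 (-1.71) past 2-fold.

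Secreted signals also leaned to the deep side, with 13 of 19 below 0 and a median of -0.94. Igf1, a growth factor gene, stood at 7.29, 7.51, 27.1 and 11.1 CPM in superficial fibroblasts and at 124, 142, 242 and 202 CPM in deep cells (-3.39 ± 0.32). Igf2 (-1.72), Ptn (-1.90), Sema3c (-2.67), Sema3a (-1.84) and Angptl1 (-2.0) were 2-fold lower as well. Inhba, the activin subunit, was 2-fold higher in superficial fibroblasts at 137, 102, 105 and 131 CPM against 57.7, 31.6, 37.2 and 31.6 CPM (1.5 ± 0.30). It counts among the dermal condensate genes too, where it and Wif1 were 2-fold higher out of 4 considered. Sox2 had no UMI in WT or either KO library and 0.626 CPM in HET, and Foxd1 had none in any library, so these condensate factors were at or near 0 at this depth. Fos (-1.24), Ier3 (-1.22) and Btg2 (-1.29), genes that rise with tissue dissociation, were 2-fold lower out of 12 stress genes.

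KO was then compared with control within the superficial fibroblasts by edgeR's quasi-likelihood test on UMIs summed per library, with the rule's genes left out. Of 10722 genes, 51 were higher in KO (0.476%) and 46 lower (0.429%) at an adjusted p under 0.05. Without cells of other lineages, 50 of 10454 genes were higher (0.478%) and 33 lower (0.316%), and 44 higher and 22 lower genes were called in both fits. Haemoglobin genes, Alas2, Kremen2, Tfap2b, Pdgfa and Car2 were among the genes called lower with all cells and not in the other fit. The test had 2 residual degrees of freedom, and leaving out 1 library moved the counts to between 41 and 201 higher and between 53 and 176 lower. Each SE beside an edgeR fold change was derived from the test, as the absolute log2 fold change over the root of F.

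Genes of the interferon response were higher in KO. Of 12 listed genes tested, 6 rose and none fell, 12 of 12 had a positive log2 fold change, and the median was 1.17 against 0.00 over all genes tested. Bst2, which encodes the antiviral tether tetherin, stood at 3.64, 4.80, 33.4 and 28.3 CPM and rose by 2.88 on the log2 scale (SE 0.264, edgeR adjusted p = 0.000308). Ifi27, an interferon-inducible mitochondrial protein gene, stood at 8.99, 8.76, 33.4 and 30.3 CPM and rose by 1.86 (SE 0.215, edgeR adjusted p = 0.00186). Ifitm3, an antiviral membrane protein gene, stood at 70.4, 65.3, 202 and 166 CPM and rose by 1.46 (SE 0.136, edgeR adjusted p = 0.000308). Both KO libraries lay above both control libraries for each of these genes. Isg15, the ubiquitin-like modifier whose promoter is printed above, had 3 UMIs in control and 63 in KO, a ratio of CPM of 53.4 (95% counting interval 17.5 to 266). Irf9, a DNA-binding factor of the interferon response, stood at 9.23, 4.59, 25.5 and 22.2 CPM and rose by 1.83 (edgeR adjusted p = 0.0228). Bst2, Ifi27, Ifitm3 and Irf9 kept their call with each library left out. Isg15 kept its call in 3 such fits and was too low to be tested without KO 1. At a score of exactly 2, Ifi27 (edgeR adjusted p = 0.121) and Irf9 (edgeR adjusted p = 0.217) were not called.

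The same interferon genes had like levels in deep cells. Bst2 stood at 3.78, 4.31, 20.2 and 26.8 CPM and Ifi27 at 14.7, 15.3, 45.8 and 52.9 CPM there, and none of the 12 genes was called in the test of a different KO effect between both sets. For Bst2 that difference was 0.38 (edgeR adjusted p = 0.936). Ifitm3 was called in that test once cells of other lineages were left out (difference 0.78, edgeR adjusted p = 0.0434), and not with all cells (0.31, edgeR adjusted p = 0.755). After thinning and pooling control and KO cells, Bst2 was found in 6.69% of superficial fibroblasts, 9.33% of deep cells and 75.9% of endothelial-gene cells. The arms had unequal weight in these pools, with 222, 311, 141 and 59 superficial fibroblasts and 111, 111, 221 and 82 deep cells. These shares therefore do not compare the sets at equal genotype. The sum of 8 endothelial genes in the superficial fibroblasts was 35.0, 27.3, 34.6 and 49.5 CPM. The part of endothelial RNA in these changes was not tested.

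Bmp4 and Runx3 fell in KO superficial fibroblasts. Bmp4, a signal of early dermis and condensates and a Wnt response gene (chr14:46383520-46390669, minus strand), stood at 27.4, 48.8, 7.56 and 12.1 CPM and fell by 2.10 on the log2 scale (SE 0.361, edgeR adjusted p = 0.0228). In deep cells it stood at 34.0, 24.4, 32.5 and 15.1 CPM, where the arms overlapped. The difference between both effects was -2.04 (edgeR adjusted p = 0.0888), and -2.10 without cells of other lineages (edgeR adjusted p = 0.0486). Runx3 (chr4:135120652-135177990, plus strand) stood at 43.0, 56.5, 18.7 and 16.2 CPM and fell by 1.48 (SE 0.218, edgeR adjusted p = 0.0112). It was at 0.687 to 2.36 CPM in deep cells. Both falls kept their call with each library left out. Among cells with A minus B of exactly 2, Bmp4 fell short of the threshold (log2 -1.79, edgeR adjusted p = 0.0631) and so did Runx3 (-1.08, edgeR adjusted p = 0.284). With a gate margin of 3 Bmp4 was not called either (edgeR adjusted p = 0.0817).

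Of 17 Wnt response genes tested, Bmp4 was the 1 called, with a list median of -0.17. Lef1 had a log2 fold change of -0.62 (SE 0.135, edgeR adjusted p = 0.0618), with both KO libraries below both control libraries, and Nkd1 of -0.17 (edgeR adjusted p = 0.697). Wif1 had -0.79 (edgeR adjusted p = 0.0582) and was called without cells of other lineages (-0.85, edgeR adjusted p = 0.0384). Of 14 Wnt inhibitors, Dkk2 rose and Sfrp5 and Kremen2 fell. Dkk2, an antagonist of Wnt co-receptors that belongs to the deep side, stood at 22.8, 16.1, 48.5 and 78.8 CPM in superficial fibroblasts and rose by 1.64 (SE 0.251, edgeR adjusted p = 0.0152). In deep cells Dkk2 stood at 213, 158, 216 and 197 CPM, and the effects differed by 1.35 (edgeR adjusted p = 0.0132). Sfrp5, a secreted inhibitor, had 56, 75, 3 and 2 UMIs (13.6, 15.6, 1.19 and 2.02 CPM) and was lower in KO by 3.32 (SE 0.449, edgeR adjusted p = 0.00699). The Sfrp5 call was lost among cells with 0 of 6 epithelial genes (edgeR adjusted p = 0.0606) and at a score of exactly 2 (log2 -1.75, edgeR adjusted p = 0.584). At that score the Dkk2 rise (edgeR adjusted p = 0.0943) and its difference (edgeR adjusted p = 0.169) were not called. Kremen2 was not called without cells of other lineages.

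Genes known from epithelium differed between the arms in these cells as well. Wnt7b, a ligand of surface epithelium, had 82 UMIs in control and 3 in KO, a ratio of 10.7 (95% counting interval 3.55 to 53.2). Krt14, a keratin of basal epidermis, stood at 174, 69.2, 0 and 1.01 CPM in superficial fibroblasts and at 82.7, 50.8, 0.262 and 0.687 CPM in deep cells. Krt5, its partner, had no UMI in KO superficial fibroblasts and was at least 39.2-fold higher in control. Krt8 and Krt18, keratins of simple epithelia, went the other way, with Krt8 at 0.486, 0, 25.9 and 43.4 CPM and Krt18 at 0.972, 0.417, 22.7 and 57.6 CPM. Both were at similar levels in deep cells, Krt18 at 1.42, 0.479, 28.0 and 50.2 CPM. The list of 15 epithelial genes of control skin summed to 570, 293, 76.0 and 111 CPM in superficial fibroblasts and to 318, 187, 63.7 and 92.8 CPM in deep cells. The list of 10 simple epithelial genes summed to 44.7, 38.0, 97.9 and 195 CPM and to 31.2, 19.2, 104 and 199 CPM. The part of epithelial RNA in the cells' other changes was not tested.

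Few matrix genes changed within the superficial fibroblasts. Of 30 matrix genes tested, Dcn and Lum fell and Lox rose, with a list median of 0.15. Dcn stood at 568, 564, 335 and 319 CPM and fell by 0.78 (SE 0.112, edgeR adjusted p = 0.00992), against 1236, 998, 958 and 1078 CPM in deep cells. The effects differed by -0.72 (edgeR adjusted p = 0.00594). That difference was not called without HET (edgeR adjusted p = 0.0915). Lum, which encodes the proteoglycan lumican, stood at 941, 1009, 610 and 612 CPM and fell by 0.67 (edgeR adjusted p = 0.0228), a call lost without HET (edgeR adjusted p = 0.123). Lox stood at 22.8, 21.9, 49.3 and 52.5 CPM and rose by 1.18 (SE 0.169, edgeR adjusted p = 0.00992), while deep cells had 244, 180, 214 and 249 CPM. The Lox effects differed by 0.99 (edgeR adjusted p = 0.022), which was not called without WT (edgeR adjusted p = 0.154) or KO 1 (edgeR adjusted p = 0.212). Col7a1, the gene of anchoring fibrils between dermis and epidermis, stood at 24.8, 30.4, 10.3 and 10.1 CPM and fell by 1.43 (edgeR adjusted p = 0.0228), a call lost with DESeq2 (adjusted p = 0.163). Of 12 retinoic acid genes, 1 was called, with a list median of 0.03. It was Fabp5, a fatty acid and retinoic acid carrier gene, which stood at 464, 609, 276 and 323 CPM and fell by 0.85 (edgeR adjusted p = 0.0289), a call lost without HET (edgeR adjusted p = 0.167) and without cells of other lineages (edgeR adjusted p = 0.0516). With a gate margin of 3, neither Dcn (edgeR adjusted p = 0.0637), Lox (0.114) nor Col7a1 (0.207) was called.

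Other named genes fell or rose with both KO libraries on 1 side of both control libraries. Penk, the proenkephalin gene, stood at 76.3, 54.0, 29.0 and 32.3 CPM and fell by 1.10 (edgeR adjusted p = 0.035), a call lost without WT (edgeR adjusted p = 0.138). The stress and growth-arrest gene Gadd45a stood at 27.7, 30.4, 9.95 and 12.1 CPM and fell by 1.45 (edgeR adjusted p = 0.0182). Nuak1, a kinase gene, stood at 18, 12.9, 49.7 and 46.5 CPM and rose by 1.66 (SE 0.201, edgeR adjusted p = 0.00272), and Apod, the gene of apolipoprotein D, stood at 40.1, 13.6, 85.2 and 106 CPM and rose by 1.83 (edgeR adjusted p = 0.0359). Rgcc, a cell-cycle regulator gene of the deep side, stood at 1.94, 3.34, 13.1 and 13.1 CPM and rose by 2.27 (edgeR adjusted p = 0.0228). Stmn2, a tubulin-binding gene of neurons, stood at 57.1, 52.8, 132 and 410 CPM and rose by 2.24 (edgeR adjusted p = 0.0228). The list of 6 neuron genes, Stmn2 among them, summed to 91.3, 74.2, 172 and 452 CPM. Stmn2 itself made up most of this sum in every library. The part of neuron RNA in the result was not tested. With DESeq2 the calls were lost for Apod (adjusted p = 0.77), Stmn2 (0.302), Gadd45a (0.123), Penk (0.0706) and Rgcc (0.0585). With a gate margin of 3 they were lost for Apod (edgeR adjusted p = 0.0663), Stmn2 (0.539), Gadd45a (0.0663), Penk (0.303), Rgcc (0.475) and Nuak1 (0.0685), and with library totals for Apod (0.0664) and Penk (0.0582). Of 8 Notch genes, Notch1 fell (-2.14, edgeR adjusted p = 0.0317) and its target Hes1 rose (0.81, edgeR adjusted p = 0.048). Neither was called with DESeq2 (adjusted p = 0.254 and 0.191) or with a gate margin of 3 (edgeR adjusted p = 0.239 and 0.128). Hes1 was also not called with library totals (edgeR adjusted p = 0.0682) or with the gate on thinned cells (0.0515). Notch1 was not called without HET or without KO 1 (edgeR adjusted p = 0.129 and 0.074), and Hes1 not without WT (edgeR adjusted p = 0.297).

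**Figure D4:**
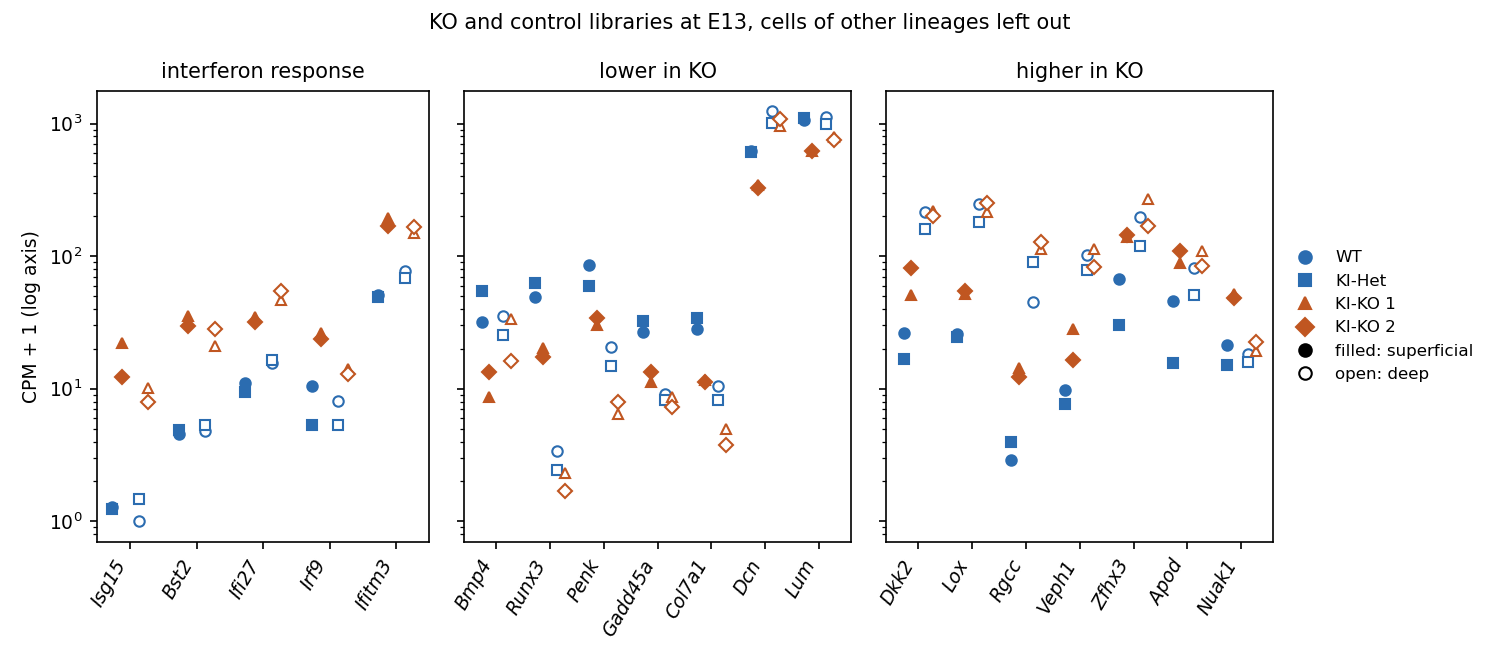
Level of genes in superficial fibroblasts (filled points) and deep cells (open points) without cells of other lineages, as CPM + 1 on a log axis, with 1 point per E13 library coloured by genotype arm. In the panels of lower genes and of interferon genes the KO superficial fibroblasts lie below and above control, as for Runx3 (16.2 to 18.7 against 43.0 to 56.5 CPM with all cells) and Bst2 (28.3 to 33.4 against 3.64 to 4.80 CPM).

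Gene lists with no called member filled most of the remaining themes. None of 24 S phase genes (median -0.10) and none of 24 G2 and M phase genes (median -0.29, 23 of 24 below 0) passed the threshold with all 4 libraries. The G2 and M phase result rested on which KO library was used: without KO 1, 19 of 24 were called lower (median -0.81), and without KO 2 none was (median -0.03). Without KO 1, 1 S phase gene was called lower. None of 21 Hox genes, 15 Wnt receptors and agonists, 12 FGF and ERK genes, 8 Hedgehog genes, 15 basement membrane genes, 16 stress genes or 15 hypoxia genes was called. Of 20 genes of BMP and TGF-beta signalling, Bmp4 and Fst, the follistatin gene that also sits in the epithelial list, fell, and Fst was not called without cells of other lineages (-1.06, edgeR adjusted p = 0.163). Twist2 was level between arms, with a log2 fold change of 0.04 (edgeR adjusted p = 0.95).

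The genes that set superficial fibroblasts apart from deep cells were then read in KO against control. Of the 49 genes higher in superficial fibroblasts, 42 had a negative KO fold change (median -0.31), 2 fell past the threshold (4.08%, against 0.429% of all genes) and none rose. Without cells of other lineages 6 fell, among them Serpinc1 and Nrxn2 (edgeR adjusted p = 0.0392 each). Of 103 tested genes higher in deep cells, 80 had a positive fold change (median 0.40), 6 rose (5.83%, against 0.476% of all genes) and none fell. The genes of this contrast were selected from the same libraries, so the counts are a description.

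The last comparison asked whether the KO effect differed between superficial fibroblasts and deep cells, with the library as a block. Of 10629 genes, 47 were called (0.442%), 27 with a higher and 20 with a lower effect in superficial fibroblasts. Without cells of other lineages 41 of 10580 were called (0.388%), 37 of them shared. All 8 genes of the erythroid marker list were called with all cells. Outside the cell type marker lists, mesenchymal and positional transcription factors had most calls, with 6 genes. Zic4, a zinc finger factor gene of dorsal tissue, stood at 99.8, 64.4, 114 and 111 CPM in superficial fibroblasts and at 70.5, 43.1, 32.7 and 25.4 CPM in deep cells. Its effects differed by 1.29 (edgeR adjusted p = 0.00524), and the call was kept with each library left out. It was lost with DESeq2 (adjusted p = 0.082), with a gate margin of 3 (edgeR adjusted p = 0.166) and at a score of exactly 2 (edgeR adjusted p = 0.0603). Zic1 stood at 210, 166, 234 and 241 CPM and at 149, 104, 90.7 and 75.6 CPM, with a difference of 0.83 (edgeR adjusted p = 0.0132) that was not called without WT (edgeR adjusted p = 0.0847) or with DESeq2 (adjusted p = 0.158). For both genes the KO libraries lay below control in deep cells and not in superficial fibroblasts.

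Irx3, Irx5 and Tcf4 had the same form. None of their differences was called with DESeq2 (adjusted p = 0.118, 0.497 and 0.255 in that order). The gate on thinned cells did not call them either (edgeR adjusted p = 0.0611, 0.0512 and 0.159). Irx3 stood at 339, 323, 364 and 372 CPM in superficial fibroblasts and at 130, 81.0, 63.4 and 52.2 CPM in deep cells (difference 0.89, edgeR adjusted p = 0.0316). It was not called without WT (edgeR adjusted p = 0.297) or KO 2 (edgeR adjusted p = 0.0594). Irx5 differed by 0.83 (edgeR adjusted p = 0.0348), not called without WT (edgeR adjusted p = 0.293) or KO 1 (edgeR adjusted p = 0.36), and Tcf4, an E-protein gene, by 0.53 (edgeR adjusted p = 0.0195), not called without WT or HET (edgeR adjusted p = 0.101 and 0.204). The growth factor gene Ptn stood at 313, 221, 440 and 410 CPM in superficial fibroblasts and at 771, 815, 2094 and 1950.4 CPM in deep cells, with a difference of -0.73 (edgeR adjusted p = 0.0242) that was not called without WT (edgeR adjusted p = 0.183). The Ptn difference was also not called with DESeq2 (adjusted p = 0.0631) or with the gate on thinned cells (edgeR adjusted p = 0.216). Rspo3, a Wnt agonist gene, stood at 32.1, 58.4, 25.5 and 28.3 CPM in superficial fibroblasts and at 39.2, 28.7, 71.5 and 54.3 CPM in deep cells. It was higher in KO in deep cells and lower in superficial fibroblasts, and DESeq2 did not call its difference (adjusted p = 0.185). Its effects differed by -1.78 (edgeR adjusted p = 0.0266), a call lost without HET (edgeR adjusted p = 0.23) or KO 1 (edgeR adjusted p = 0.306).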

How the data were processed

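The authors deposited UMI counts, whole numbers for each gene in each barcode, with no scaling. Per the submitters' processing notes, the tools were Cell Ranger and Seurat and the build was mm10, without versions, and a filter on barcodes by the authors is not given in the sources used here. The E13 libraries held 17191558 to 26456164 UMIs over 27998 genes. The cells were gated as in the report, UMIs were summed per library and cell set, and the 21 genes of the rule were left out of tests. Differences between superficial and deep cells were computed on log2(CPM + 5) with no test. KO against control was fitted on E13 libraries with edgeR 4.0.16 in R 4.3.3 (filterByExpr, TMM, quasi-likelihood F test, Benjamini-Hochberg adjustment, limit 0.05), and the difference of effects as an interaction with library as a block. Shares were compared by exact permutation. Intervals and floors cover counting error only.

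Doublets were removed only through marker genes, since no caller was run, and an alternative left out the 5% of cells with most UMIs. Tested on simulated data, the KO fit recovered 63.6% of 2-fold and 98.0% of 4-fold changes with 8 false calls among 10576 genes. The difference fit recovered 42% and 92% with 6 false calls among 10667. The simulated counts had the same dispersion for every gene and no library differences beyond total UMIs, and changes were set only in genes with higher counts. These figures therefore describe the simulated setting and not the uneven libraries here. Of 534 listed genes, 533 were found. Other lists summed in superficial fibroblasts, in the order WT, HET, KO 1 and KO 2, to 115, 147, 218 and 159 CPM (mural), 62.4, 68.2, 54.1 and 53.5 CPM (macrophage and immune), 0.729, 10.2, 2.39 and 79.8 CPM (mast), 8.99, 19.0, 5.97 and 17.2 CPM (Schwann and neural crest), 12.4, 9.80, 7.56 and 22.2 CPM (melanoblast), 71.4, 94.3, 82.8 and 66.7 CPM (muscle) and 30.4, 13.4, 29.1 and 27.3 CPM (cartilage).

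The members and lists were chosen with earlier results of these data known. Named genes were the rule's genes, the 15 highest and 15 lowest of the contrast with deep cells, the 12 largest rises and falls in KO with 20 CPM or more, the 6 largest differences of effect in each direction, and up to 4 genes per list. Lum, Isg15, Irx5, Zic1, Zic4, Tcf4, Ptn, Rspo3, Nkd1, Inhba, Fbln1 and other genes counted within a list were named after their values were seen. Some genes picked by these rules or counted within the lists are not reported by name here. HET was taken as control because the series names a single control arm. Alternatives were DESeq2 1.42.0, library totals in place of TMM, no filter on low counts, other gates, thinning to 8000 UMIs, and each library left out. The gates without 1 gene of score A, the cells of score 2, all eligible cells, the other denominators and the fit without cells of other lineages were added after the data were seen.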

Additional observations from a re-analysis of the deposited data

Results flagged for a closer look

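These genes were picked out because the KO effect in superficial fibroblasts differed from that in deep cells past an edgeR adjusted p of 0.05. Red-cell genes had a lower effect in superficial fibroblasts: Alas2 by -4.91, Hbb-bt by -4.19, Hba-a1 by -4.05, Hba-a2 by -3.95 and Hbb-bs by -3.74 on the log2 scale. Without cells of other lineages the 4 haemoglobin differences lay between -0.093 and -0.00761 with edgeR adjusted p of 0.931 to 1, and Alas2 was at -1.60 (edgeR adjusted p = 0.815).

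Lyz2, a gene of myeloid cells, differed by 3.67 and by -0.42 without cells of other lineages (edgeR adjusted p = 0.956). Gad2, the enzyme that makes GABA, differed by 3.61, with 34.2, 20.2, 23.1 and 29.3 CPM in superficial fibroblasts and 14.7, 2.87, 0.524 and 0.687 CPM in deep cells of WT, HET, KO 1 and KO 2. Gria2, a glutamate receptor gene, differed by 2.75 (2.745 before rounding), and it stood at 4.37, 2.09, 11.5 and 11.1 CPM in superficial fibroblasts and at 18, 17.7, 11.3 and 4.12 CPM in deep cells. Sh3gl3 differed by 1.84, with 7.29, 5.42, 17.5 and 11.1 CPM against 35.5, 40.7, 22.8 and 29.6 CPM. Plk2, a kinase gene, differed by 1.76, with 20.6, 14.4, 46.2 and 35.3 CPM against 55.3, 42.2, 33.5 and 33.0 CPM. Stra6, the cell's retinol importer, differed by 1.73, with 13.4, 6.88, 24.7 and 33.3 CPM against 42.6, 53.2, 34.8 and 44.7 CPM. These 5 genes were still called without cells of other lineages (edgeR adjusted p of 0.0297 for Gad2, 0.0141 for Gria2, 0.0308 for Sh3gl3, 0.00297 for Plk2 and 0.0362 for Stra6). Plk2 was not called without KO 1 (edgeR adjusted p = 0.0856), and Gria2 not without HET (edgeR adjusted p = 0.0981). Sh3gl3 was not called without HET or KO 1 (edgeR adjusted p = 0.246 and 0.678), Gad2 not without WT, KO 1 or KO 2 (edgeR adjusted p = 0.496, 0.232 and 0.0594), and Stra6 not without HET, KO 1 or KO 2 (edgeR adjusted p = 0.292, 0.11 and 0.0594).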

How the results depend on the processing

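No paired analysis was possible because the control libraries carry no replicate numbers in the labels. Where a library is left out, the lone sample of its arm is assumed to vary like the other arm. The 51 genes higher in KO became 22 with DESeq2, 156 without the filter on low counts, 14 with a gate margin of 3, 33 with the gate on thinned cells, 33 with 0 of 6 epithelial genes, 19 with a score of exactly 2, 14, 12, 14 and 10 with Crabp1, Nrgn, Lix1 or Sp5 left out of the gate, 96 over all eligible cells, and 41 to 201 with each library left out. The 46 lower genes became, in that order, 23, 195, 14, 25, 24, 24, then 14, 17, 18 and 10, then 86, and 53 to 176 with each library left out. The 27 higher differences of effect became 2 with DESeq2, 56 with library totals, 92 without the filter, 50 without the deepest 5% of cells, 3 with a score of exactly 2 and 41, 53 and 48 without Crabp1, Nrgn or Lix1. The 20 lower ones became 1 with DESeq2, 48 without the filter, 11 with thinning, 11 with 0 of 6 epithelial genes, 9 with a score of exactly 2, 12 without cells of other lineages and 38, 43 and 48 without Crabp1, Nrgn or Lix1. The share difference of -18.9 points became -12.04 with margin 3 and -14.92 with thinning. Without Crabp1, Nrgn, Calb1, Lix1 or Sp5 it was -12.04, -14.00, -12.21, -13.07 and -15.31. It was -14.65 over all quality cells and -11.75 at E15. The ratio of the KO to the control share went from 0.538 to 0.474 with margin 3 and 0.655 with thinning. Without the same genes in turn it was 0.474, 0.459, 0.616, 0.462 and 0.453. The ratio was 0.425 over all quality cells and 0.465 at E15. Every superficial fibroblast held Crabp1, so leaving it out took the same superficial cells as margin 3. The 49 genes higher than in deep cells became 81 with margin 3 and 24 with a score of exactly 2, and the 106 lower ones 58. Lyz2 ranged from -0.9971 to 4.044 with each library left out and turned to -0.9971 without KO 1, -0.423 without cells of other lineages, -1.395 without Crabp1 and -1.507 without Lix1. The causes were not tested. Single called genes picked by the naming rules were refitted too, some of which the text does not name. Of these refits, 941 kept direction and call, 350 kept direction and lost the call, and 4 reversed. At an unadjusted p under 0.05, 1049 genes passed for KO against control and 766 for the difference of effects. The KO 2 set of 60 cells limits the precision of all of these.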
